A study of Mus musculus with 2 samples.

Results

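The genes described are 10 nuclear genes whose proteins copy, transcribe and package the mitochondrial genome or regulate the making of mitochondria: Nrf1, Ppargc1a, Ppargc1b, Polrmt, Tfam, Tfb1m, Tfb2m, Polg, Polg2 and Ssbp1. They were chosen by symbol, by a rule that used no values although earlier results of these data were known, from 34236 gene symbols, and each had 1 row in the tables. RNA was sequenced from 2 libraries of mouse heart, replicate 1 and replicate 2, at embryonic day 12.5. The mice were of a mixed C57BL/6 x 129S6 background, and no treatment is named. The labels do not say whether the replicates came from separate embryos, so their spread may be technical. Levels are FPKM, fragments per kilobase of transcript scaled to library size, which allows genes of different length to be compared. With 1 group of 2 libraries there is no condition to test, and an exact sign-flip test could not go below p = 0.5, so all that follows is description.

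FPKM values added up to 388230 for replicate 1 and to 382561 for replicate 2. Counts were not used here and absolute depth is unknown. From the steps between the lowest values, replicate 1 was 1.33 times as deep as replicate 2. All 10 heart muscle markers were detected (1 FPKM or more in both libraries), as were all 8 red cell, 6 endothelial and 10 epicardial and mesenchymal markers. None of 6 liver and none of 7 lung and foregut markers was detected, against 4 of 6 neuron markers and 1 of 8 skeletal muscle and brown fat markers. The level of a gene in such whole tissue joins all of these cell types, and fewer cells of a type cannot be told apart from less RNA per cell.

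Mitochondria keep a small circular genome that is present in many copies per cell. Its genes are read by POLRMT, a polymerase made of a single subunit, which starts at promoters bound by TFAM and opened by TFB2M. TFAM also coats and compacts the genome into nucleoids. Replication uses POLG, the catalytic and proofreading polymerase, POLG2, its accessory subunit, and SSBP1, which covers the single strands laid bare. All of these proteins are encoded in the nucleus, where the transcription factor NRF1 and the coactivators encoded by Ppargc1a and Ppargc1b promote expression of mitochondrial genes. In heart muscle this programme is known for the rise in mitochondrial mass before and after birth.

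The promoters of 9 of the 10 genes were found in RefSeq's table for GRCm38.p6, as windows from 250 bases before to 50 after the start. Nrf1 had a second window, which makes 10. The core of the binding motif of ETS factors, CCGGAAG read on either strand, lay in 5 of the 9 genes. ETS factors include GABPA, a known activator of mitochondrial genes. The stretches are shown because the motif sat at like places in all 5, beginning 47 bases before the start in Tfam and Ssbp1, 43 in Polrmt, 38 in Polg and 29 in Polg2. Capitals mark the motif in stretches of 30 bases, each written 5′ to 3′ along the gene's own strand.
Tfam, chr10:71238073-71238102, minus strand: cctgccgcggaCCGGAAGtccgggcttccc
Ssbp1, chr6:40471410-40471439, plus strand: ggctccgtgcgCCGGAAGcgagccgctggc
Polrmt, chr10:79746606-79746635, minus strand: ccctaagagcgCTTCCGGcagtcgcagaac
Polg, chr7:79466293-79466322, minus strand: gaggacctcacCCGGAAGtccctctgcacc
Polg2, chr11:106779548-106779577, minus strand: cgggtgacgctCTTCCGGgggcgtggtcta

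The ETS core was present in 8.86% of all 32851 promoters, in 9.93% of genes when counted by gene, and in 20.3% of the 8484 genes with a promoter that were detected in both heart libraries. Within the last 50 bases before the start, a window set after the positions were seen, it was present in 3.03% of promoters, in 7.64% of detected genes and in the 5 genes above. In Tfam, Ssbp1 and Polg the letters read CCGGAAG along the gene, and in Polrmt and Polg2 they read CTTCCGG, the same motif on the other strand. The core of the NRF1 site, GCATGCGC on either strand, lay in Polrmt and Tfb2m, in 2 of 9 genes against 3.05% of all genes and 6.38% of detected genes. Matches of this core on both strands can overlap. Only the exact letters were sought, so variants of the site were not counted. The stretches that hold it are shown as the NRF1 matches among the 9 genes.
Polrmt, chr10:79746696-79746725, minus strand: agagtatttctGCGCATGCtctcttgccgc
Tfb2m, chr1:179546245-179546274, minus strand: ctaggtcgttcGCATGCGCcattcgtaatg

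In Polrmt the NRF1 letters began 133 bases before the start, and in Tfb2m 13 bases after it, so the Tfb2m match lies in transcribed sequence. The E-box CACGTG, which reads the same on both strands, was in 0 of 9 genes, in 8.09% of all genes and in 12.1% of detected genes. Polrmt held both the ETS core and the NRF1 core. Ppargc1a, Tfb1m and both windows of Nrf1 held none of the 3 motifs. The C and G content of the windows ran from 46.3% at the second Nrf1 window to 77.0% at the other, with 70.3% at Tfam, 67.3% at Tfb2m and 48.7% at Ppargc1a, beside medians of 52.7% over all promoters and 61.3% over those of detected genes. A match of letters does not show that a factor was bound.

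All 10 genes were detected in both libraries. The share of all symbols detected in this way was 36.2%, and of protein-coding symbols 52.4%. Mean levels ran from 2.86 FPKM for Ppargc1b to 24.2 FPKM for Tfam, a range of 8.48-fold. The median of the 10 means was 9.98 FPKM. Of all symbols, 18.4% were higher than this, and the median of the percentiles of the 10 genes among all symbols was 81.4. The level of 9.98 FPKM was close to 9.91 FPKM, the median of the 12637 symbols whose mean reached 1 FPKM. Of the 10 genes, 5 lay above that median and 5 below. Together they made up 0.0289% of the summed FPKM in each library. The plot of levels by library shows the genes in the order of their roles.

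**Figure D1:**
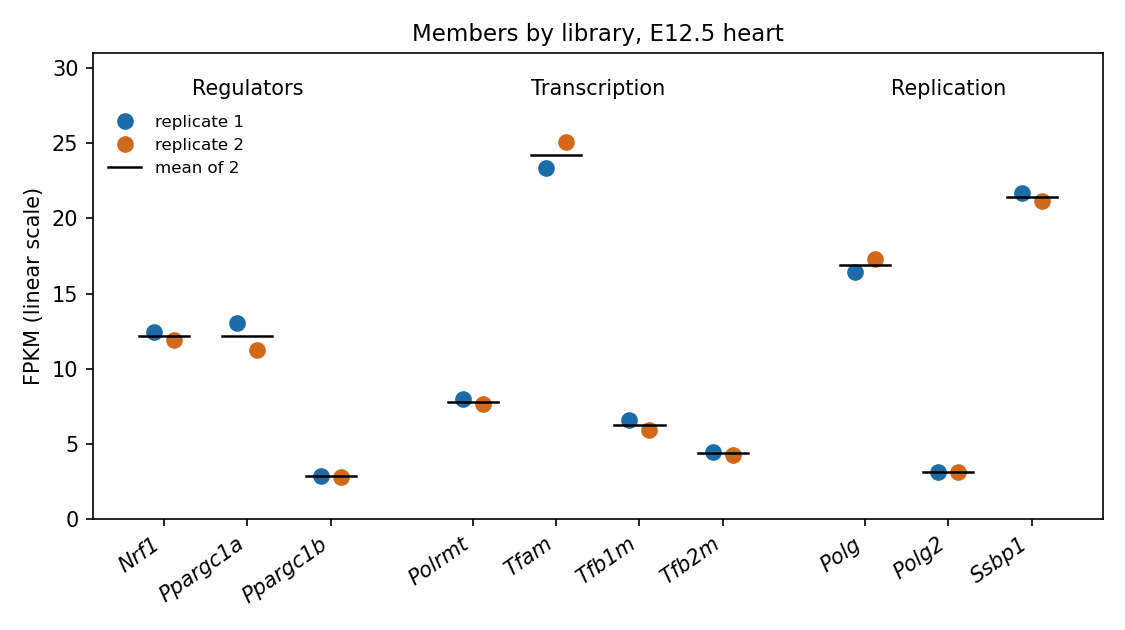
FPKM on a linear axis from 0 for each of the 10 genes, with 1 point per library and a line at the mean of 2, in blocks of regulators, transcription and replication genes. Tfam stands highest in the transcription block and Ssbp1 in the replication block, Nrf1 and Ppargc1a stand level among the regulators, and Ppargc1b and Polg2 lie near 3 FPKM.

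Among the regulators, Nrf1 (ENSMUSG00000058440; chromosome 6, 29997988 to 30103458, plus strand, mm9) was at 12.4 FPKM in replicate 1 and 11.9 FPKM in replicate 2. It encodes nuclear respiratory factor 1, which binds the promoters of many genes for mitochondrial proteins, and is not the gene Nfe2l1, whose protein is also called NRF1. Ppargc1a (ENSMUSG00000029167; chromosome 5, 51845488 to 51958964, minus strand) was at 13.0 and 11.3 FPKM. It encodes PGC-1 alpha, a coactivator that docks on NRF1 and on nuclear receptors and is induced by cold, exercise and fasting. The libraries of Nrf1 and Ppargc1a overlapped, and their means, 12.2 ± 0.396 and 12.1 ± 1.252 FPKM (SD, n = 2), could not be placed in order. Ppargc1b (ENSMUSG00000033871; chromosome 18, 61457790 to 61560085, minus strand), which encodes the related coactivator PGC-1 beta, was at 2.90 and 2.81 FPKM. Both of its values lay below every value of the other regulators.

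Ppargc1a was thus 4.25 times as high as Ppargc1b by the ratio of mean FPKM. The log2 ratio of Ppargc1b to Ppargc1a, here and below after adding 1 FPKM to each level, was -1.77 ± 0.11 (SD, n = 2). Such ratios are set against a spread of 0.32 log2 units: 95% of symbols at a mean of 1 FPKM or higher differed by less than this from one library to the other. The spread compares a gene with itself, so it does not measure an offset between genes that both libraries share. Pprc1, the third gene of the coactivator family, was at 13.8 and 13.4 FPKM. It exceeded Ppargc1b by 1.92 ± 0.00092 log2 units, while its ratio to Ppargc1a, 0.16 ± 0.11, lay within the spread. Of the 3 coactivator genes, Ppargc1a and Pprc1 were therefore at like levels and Ppargc1b was the low one.

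In the transcription group, Tfam (ENSMUSG00000003923; chromosome 10, 70688212 to 70701028, minus strand) was at 23.4 FPKM in replicate 1 and 25.1 FPKM in replicate 2, the highest mean of the 10 genes. Polrmt (ENSMUSG00000020329; chromosome 10, 79198868 to 79209326, minus strand) was at 7.97 and 7.66 FPKM. Tfam lay above Polrmt in both libraries, by 1.52 ± 0.10 log2 units, a ratio of mean FPKM of 3.10. TFAM acts both as an initiation factor and as a packaging protein, whereas POLRMT is needed at each transcript.

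Tfb1m (ENSMUSG00000036983; chromosome 17, 3519263 to 3557713, minus strand) was at 6.63 and 5.93 FPKM. Its protein methylates the RNA of the small mitochondrial ribosomal subunit. Tfb2m (ENSMUSG00000026492; chromosome 1, 181458186 to 181476398, minus strand), the initiation factor that opens the promoter, was at 4.49 and 4.25 FPKM. These genes arose from the same bacterial type of methyltransferase gene. Both Tfb2m values lay under both Tfb1m values, with a log2 ratio of -0.44 ± 0.05. Tfb2m was also lower than Polrmt, its partner in initiation, with a log2 ratio of -0.72 ± 0.01, whereas the neighbours Polrmt and Tfb1m differed by 0.28 ± 0.06, within the spread. The level of Tfb2m carries an added uncertainty: 1187 bases of its 2449-base transcript match the pseudogene Gm1818 at 99.3% identity. Gm1818 was listed at 0.203 and 0.301 FPKM, and a plain sum with Tfb2m gives a mean of 4.62 FPKM. Each FPKM is scaled to its own transcript length, so this sum is not a corrected level.

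In the replication group, Polg (ENSMUSG00000039176; chromosome 7, 86593677 to 86611248, minus strand) was at 16.4 FPKM in replicate 1 and 17.3 FPKM in replicate 2. Polg2 (ENSMUSG00000020718; chromosome 11, 106629567 to 106640851, minus strand) was at 3.13 and 3.15 FPKM, the closest pair of values among the 10 genes. Polg thus exceeded Polg2 by 2.11 ± 0.04 log2 units, or 5.37-fold by mean FPKM. In the holoenzyme the proteins stand the other way round, with a dimer of POLG2 bound to a single POLG. Protein was not measured here, so the RNA ratio does not give the ratio of the subunits.

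The end of Polg overlaps that of Fanci, a DNA repair gene on the other strand, over 1475 bases of the gene models, and Fanci was at 4.49 and 4.12 FPKM. Strand setting is not recorded, so fragments from the overlap cannot be told apart. Tfb1m likewise overlaps Tiam2 by 135 bases, with Tiam2 at 0.942 and 0.851 FPKM, and Cldn20 by 660 bases, with Cldn20 at 0.643 and 0.428 FPKM. For Polg2, matches of at most 108 bases were found, among them to Plscr2 at 4.03 and 3.10 FPKM and, over 93 bases, to Ctnna3 at 6.37 and 5.35 FPKM. These levels are near or above that of Polg2 itself, and the part of such fragments in its level was not tested.

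Ssbp1 (ENSMUSG00000029911; chromosome 6, 40421351 to 40431822, plus strand) was at 21.7 and 21.1 FPKM. It ranked second of the 10, below Tfam at a log2 ratio of -0.17 ± 0.09, which is within the spread. Ssbp1 exceeded Polg by 0.33 ± 0.07, just past the spread, but by 0.27 in replicate 2 alone, which is within it. A pseudogene, Gm12115, matches 229 bases of a Ssbp1 transcript at 99.1% identity and was listed at 0.856 and 1.59 FPKM.

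Sorted by mean, the order was Tfam, Ssbp1, Polg, Nrf1, Ppargc1a, Polrmt, Tfb1m, Tfb2m, Polg2 and Ppargc1b. Of the 9 neighbouring steps, 5 were larger than the spread with values that did not overlap. The other 4, Tfam to Ssbp1, Nrf1 to Ppargc1a, Polrmt to Tfb1m and Polg2 to Ppargc1b, were not. Of all 45 pairs among the 10 genes, 41 were separated by this rule.

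Between the libraries none of the 10 genes differed 1.5-fold or more, against 2.34% of the 12637 symbols whose mean reached 1 FPKM. With so small a share over all symbols, this does not set the 10 genes apart. The largest difference was that of Ppargc1a, at -0.19 log2 units for replicate 2 against replicate 1, followed by Tfb1m at -0.14 and Tfam at 0.10. In replicate 2, 7 of the genes were lower and Tfam, Polg and Polg2 were higher, where 66.6% of all such symbols were lower. With the libraries set to a median ratio of 1, Ssbp1 moved to the higher side, which made 6 lower and 4 higher. The median difference of the 10 genes was -0.04, the same at this rounding as that over all such symbols (-0.04).

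**Figure D2:**
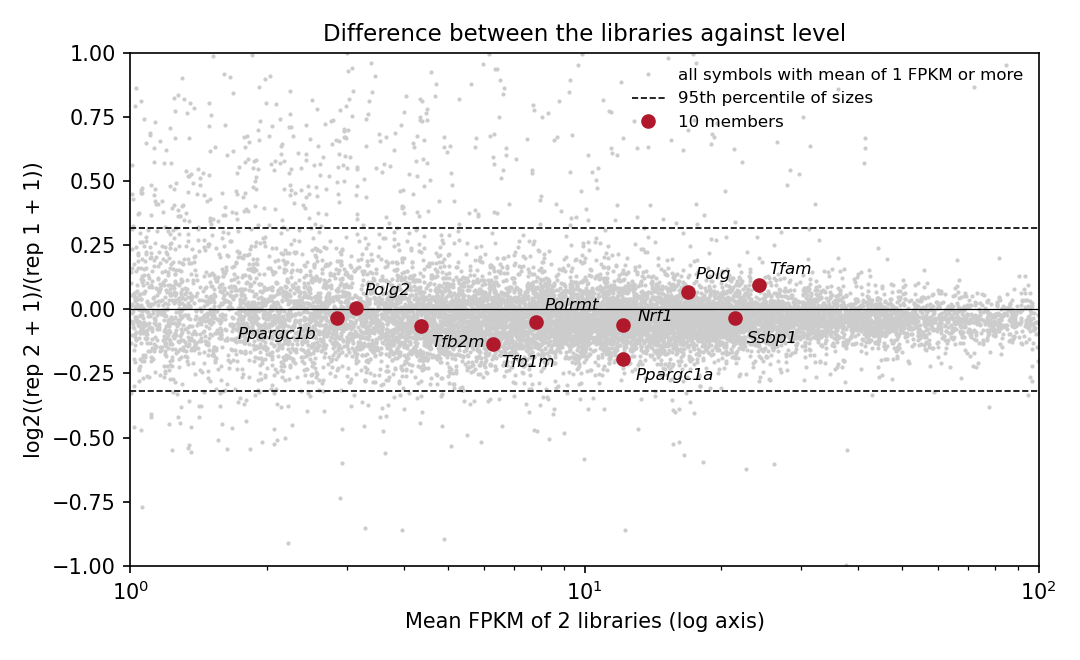
Log2 difference between the libraries (replicate 2 over replicate 1, after adding 1 FPKM) against mean FPKM on a log axis. Grey points are symbols with a mean of 1 FPKM or more (585 of 12637 lie beyond the axes), red points the 10 genes, and dashed lines the spread of 0.32, inside which all 10 red points fall.

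The genes were then set beside others of the same pathways, in 5 lists of which 101 genes were measured and 97 were detected. All 19 genes of replication and repair of mitochondrial DNA were detected, with a median of 8.32 FPKM. The list was led by the pyrimidine nucleotide carrier Slc25a36 at 45.1 ± 1.96, the inner membrane protein gene Mpv17 at 31.2 ± 0.0406 and the nucleoid-associated ATPase Atad3a at 29.6 ± 0.538 FPKM. Several of these genes, among them Ung, Fen1, Lig3 and Dna2, also serve the nucleus. Twnk, the helicase that unwinds mitochondrial DNA (listed as Peo1), was at 8.95 and 9.15 FPKM. Polg exceeded Twnk by 0.83 ± 0.03 log2 units and Ssbp1 exceeded it by 1.16 ± 0.04. The mitochondrial topoisomerase Top1mt was lowest at 2.83 ± 0.313 FPKM, and the nuclease Mgme1 (listed as 8430406I07Rik) was at 8.32 ± 0.104 FPKM.

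The nucleotide supply list had 14 of 15 genes detected and a median of 16.8 FPKM, led by the ATP/ADP carrier Slc25a4 at 624 ± 17.0 FPKM. Its member under the limit was Tymp, thymidine phosphorylase, at 0.457 ± 0.00278 FPKM. For Tk2 and Rrm2b, which supply nucleotides to mitochondria outside S phase, levels were far below those of their S-phase counterparts. Tk2, the mitochondrial thymidine kinase, was at 4.81 and 4.34 FPKM against 36.6 and 35.9 for Tk1 (log2 ratio -2.74 ± 0.07). Rrm2b, the ribonucleotide reductase subunit of resting cells, was at 7.54 and 7.39 FPKM against 79.6 and 77.0 for Rrm2 (-3.23 ± 0.02). Dguok, the deoxyguanosine kinase of mitochondria, was at 11.1 ± 0.0153 FPKM.

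Other mitochondrial forms were set against nuclear genes of like function. Top1mt was lower than Top1, with a log2 ratio of -3.27 ± 0.08, and Lig3, the ligase that mitochondria use, was lower than Lig1 at -1.34 ± 0.04. Ssbp1 was lower than Rpa1, a subunit of the nuclear single-strand binding complex, at 50.4 and 46.2 FPKM (-1.14 ± 0.06). Polrmt was lower than Polr2a, the large subunit of RNA polymerase II, at -0.79 ± 0.05. Polr1a, the large subunit of RNA polymerase I, was at 7.38 and 6.41 FPKM, below Polrmt in both libraries. Polg exceeded Pole, the catalytic subunit of nuclear polymerase epsilon at 5.61 and 5.51 FPKM, by 1.45 ± 0.06. Pold1, the catalytic subunit of polymerase delta, was at 17.4 and 18.5 FPKM, above Polg in both libraries. Polr2a thus lay above Polrmt, and Pole below Polg, past the spread. The differences of Polr1a from Polrmt and of Pold1 from Polg were not set against it, so their order is not settled. Tfb1m and Dimt1, its counterpart in nucleolar ribosomal RNA methylation, differed by 0.27 ± 0.09, within the spread, though by 0.33 in replicate 1 alone, which is past it.

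Of the 27 genes listed for mitochondrial transcription and RNA processing, 26 were matched, all 26 were detected, and their median was 12.4 FPKM. The highest were Mrpl12 at 72.3 ± 1.59, Hsd17b10, a subunit of the enzyme that cuts tRNAs at their leading end, at 60.6 ± 1.30, Fastk at 60.0 ± 2.28 and Grsf1, a protein of the RNA granules, at 48.2 ± 1.66 FPKM. Tefm, the elongation factor of POLRMT (listed as 1110002N22Rik), was at 9.60 and 8.67 FPKM, and its ratio to Polrmt of 0.20 ± 0.06 lay within the spread. Polrmt, Tfb1m and Tfb2m therefore lay below the median of this list and Tfam above it. All 13 genes of nucleoid and protein turnover were detected at a median of 32.0 FPKM, all of them above the median of the 10 genes. Lonp1, the matrix protease known to degrade TFAM, was at 33.08 and 30.96 FPKM and exceeded Tfam by 0.39 ± 0.13 log2 units, but by 0.29, within the spread, in replicate 2 alone.

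Of 28 other regulators of biogenesis, 25 were detected, with a median of 10.9 FPKM. The highest were Nfe2l1 at 44.8 ± 1.34 FPKM, Yy1, a factor that works with PGC-1 alpha, at 32.4 ± 1.63, and Prkaa2, a catalytic subunit of AMP-activated kinase, at 24.3 ± 3.46. Gabpa, the DNA-binding subunit of nuclear respiratory factor 2, was at 25.0 and 22.6 FPKM, above Nrf1 by 0.91 ± 0.05 log2 units. Its partner subunit Gabpb1 was lower than Gabpa, at 15.6 and 15.0 FPKM (-0.60 ± 0.06). Gabpa thus exceeded the other respiratory factor gene. The ETS core shown above for Tfam, Ssbp1, Polrmt, Polg and Polg2 is that of ETS factors in general, and binding by GABPA was not tested.

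The estrogen-related receptors are partners of the PGC-1 coactivators in heart. Esrra was at 23.0 and 21.2 FPKM, Esrrg at 15.3 and 14.9 FPKM and Esrrb at 3.17 and 2.98 FPKM. Esrra exceeded Esrrg by 0.52 ± 0.05 log2 units and Esrrb by 2.50 ± 0.03. Of the PPAR receptor genes, whose proteins the coactivators also bind, Ppard was at 7.21 and 7.05 FPKM, above Esrrb and below Esrra and Esrrg, and Ppara (0.872 ± 0.292) and Pparg (0.472 ± 0.119) lay under the detection limit in at least 1 library. Perm1, a muscle gene downstream of PGC-1 and ERR (listed as 2310042D19Rik), was at 0.633 ± 0.167 FPKM, the third regulator not detected. Esrra and Esrrg therefore stood above all 3 PPAR genes in both libraries.

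**Figure D3:**
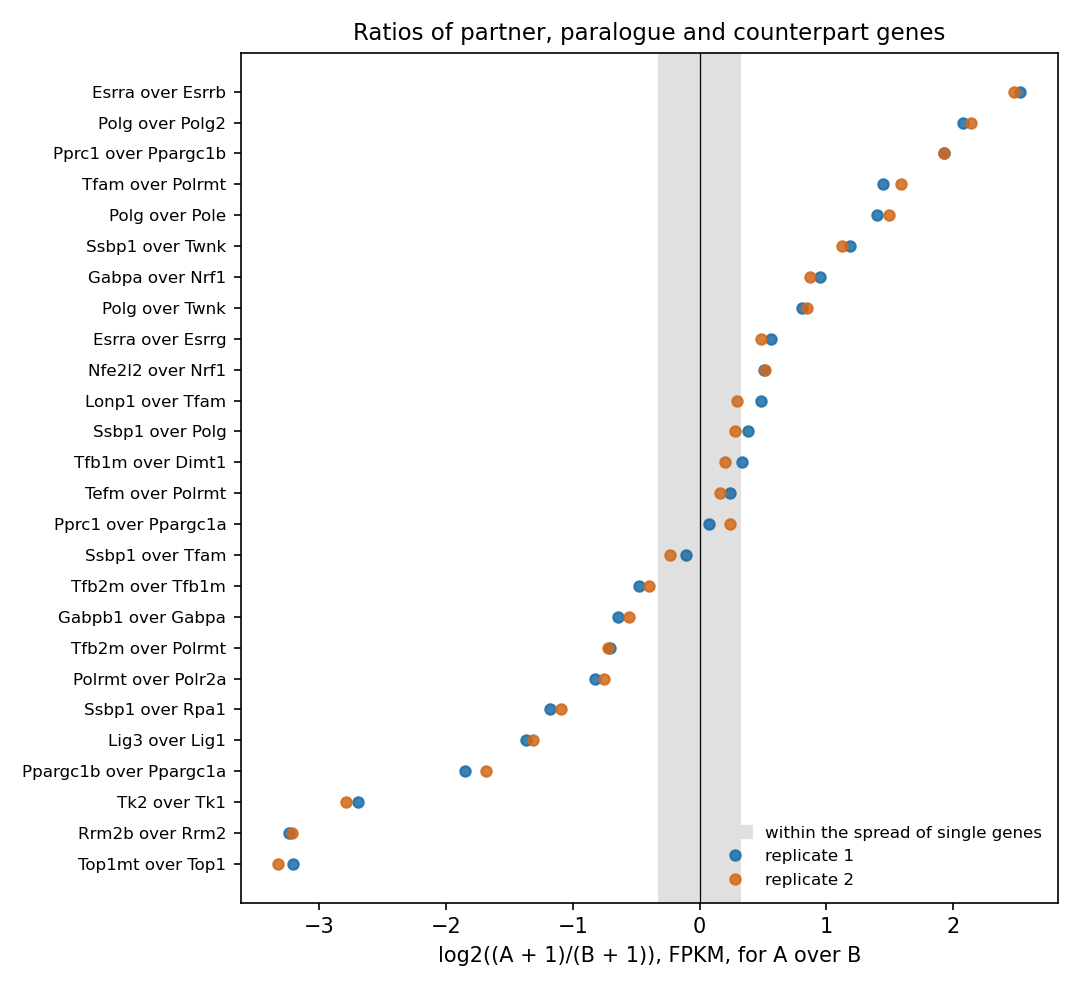
Log2 ratios (after adding 1 FPKM) of the 26 gene pairs compared, with 1 point per library, sorted by their mean. The grey band is the spread of 0.32 on either side of 0; of the pairs, 22 lie outside it with library values that do not overlap and 4 do not.

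Most nuclear subunits of oxidative phosphorylation and 7 of the 13 mitochondrially encoded mRNAs stood far above the 10 genes. The 24 nuclear subunits of oxidative phosphorylation had a median of 208 FPKM, and 23 of them exceeded the median of the 10 genes. The exception was Cycs, cytochrome c, at 4.94 and 4.99 FPKM, whose transcript has near-identical copies elsewhere, among them Gm10053 over 946 bases at 99.9% identity. Of the 13 mRNAs made by POLRMT from the mitochondrial genome, 7 lay at 1693 FPKM or more in both libraries and 6 at 11.4 FPKM or less. The 7 were mt-Co1, mt-Nd1, mt-Cytb, mt-Nd6, mt-Nd2, mt-Nd5 and mt-Nd4. The low ones were mt-Co3, mt-Atp8, mt-Atp6, mt-Co2, mt-Nd4l and mt-Nd3.

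Among the low ones, mt-Co2, mt-Co3, mt-Atp6, mt-Nd3 and mt-Nd4l each match another annotated gene over 99.0% to 99.9% of their length at 99.7% to 100% identity. Among the high ones, mt-Co1 matches such a copy over 31.3% of its length and mt-Nd4 over 63.6%. For mt-Atp8 no match of 75 bases or more at 98% identity was found among annotated transcripts. Shorter matches and copies outside the annotation were not sought. Gm10925, the copy of mt-Atp6, was listed at 14.7 and 18.3 FPKM, above mt-Atp6 itself at 3.73 and 4.22 FPKM. Gm10222, the copy of mt-Nd4l, was listed at 1.60 and 0.524 FPKM, below mt-Nd4l at 3.86 and 1.92 FPKM. The part of these copies in the levels was not tested, and levels of the low mRNAs are uncertain. The mitochondrial mRNAs are cut from long shared transcripts, and mt-Nd6 lies on the strand opposite to the others, where fragments cannot be assigned without strand.

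The 7 high mRNAs were all higher in replicate 2, by 0.14 to 0.24 log2 units, each within the spread of 0.32. Being cut from long shared transcripts, they are not 7 separate observations. Their share of all FPKM, over the 13 mRNAs, was 7.82% for replicate 1 and 8.95% for replicate 2. Over the same libraries Polrmt moved by -0.05, Tfam by 0.10, Tfb2m by -0.06 and Lrpprc, which stabilises these mRNAs, by -0.17. These differences also lay within the spread. The share of the 10 genes stayed at 0.0289%.

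**Figure D4:**
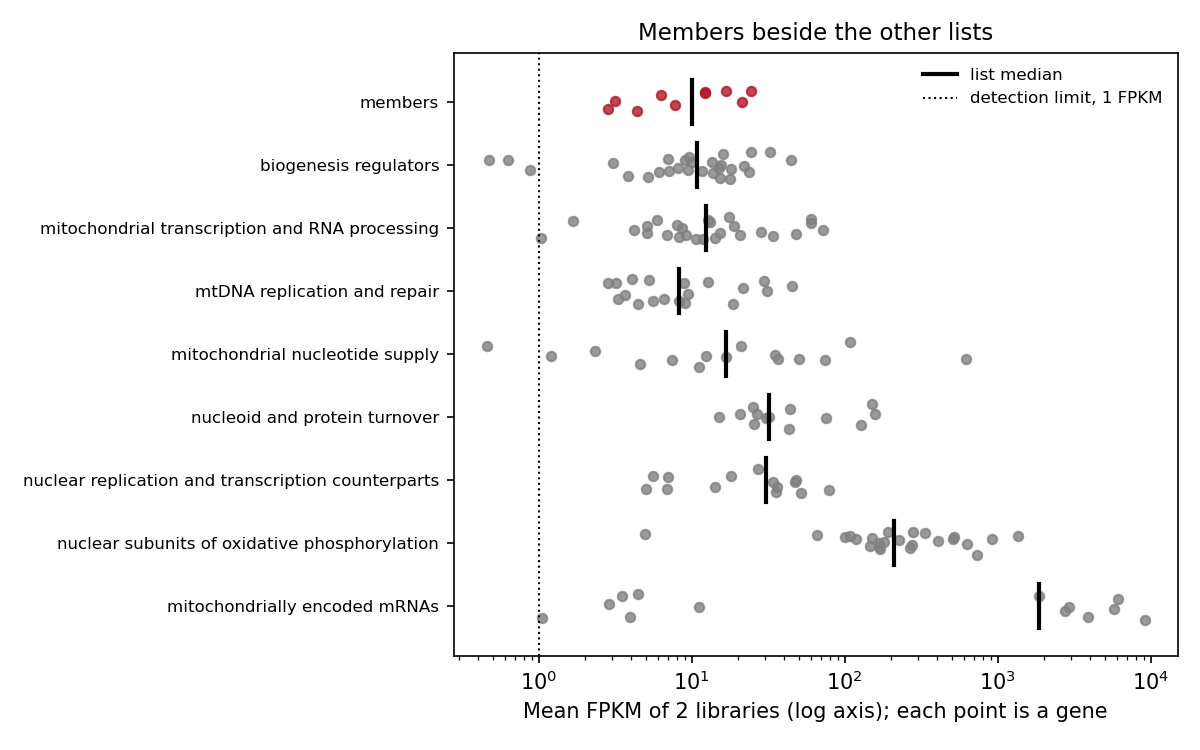
Mean FPKM on a log axis for the 10 genes (red, in the row named members) and for the genes of the other lists (grey), with a bar at each list median and a dotted line at 1 FPKM. The median is 9.98 FPKM for the 10 genes, 8.32 FPKM for the replication and repair list, which is the lowest plotted, and 1847 FPKM for the mitochondrial mRNAs, whose points fall into a high and a low cluster.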

How the data were processed

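The authors deposited 1 table per library with an FPKM value per gene, per the file headers. The tools named are GSNAP, Cuffnorm and Cufflinks, and the builds mm9 and hg19, per the submitters' processing notes; versions, annotation and strand setting are not recorded there. The coordinates were taken as mm9, since genes on chromosome 1 reach 197054592, whereas in GRCm38 they reach 195323493. Per the labels' protocols, RNA was extracted with Trizol and libraries were made with TruSeq RNA v2.

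Rows of a symbol were summed. Levels are the mean ± SD of 2 libraries, ratios are log2(FPKM + 1), and pairs were set against the 95th percentile of differences between libraries. Of 224 listed genes, 210 matched by symbol, 13 by gene ID and 1 (Prorp) did not. The rule for the 10 genes used no values, but the genes, lists and pairs were chosen with earlier results of these data known. Named genes are the 10, those in pairs, the 4 highest and up to 4 lowest under 1 FPKM of each list, and any gene of the replication and regulator lists or the mitochondrial mRNAs. Chosen after their values were seen were Cycs, Dguok, Lrpprc, Pold1 and Polr1a. So were the overlapping or copied genes Gm1818, Gm12115, Gm10053, Gm10925, Gm10222, Fanci, Tiam2, Cldn20, Plscr2 and Ctnna3. Copies were sought in GENCODE M21 transcripts with BLAST 2.17.0 (98% identity, 75 bases). Promoters are from RefSeq (GRCm38.p6); detected genes were added as a background after the data were seen. The difference rule was tested on simulated data. Alternatives were other pseudocounts, limits, folds and scalings, single libraries and added copies. Python 3.11.15, NumPy 2.4.6, pandas 2.3.3 and Matplotlib 3.10.9 were used.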

Additional observations from a re-analysis of the deposited data

How the results depend on the processing

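No paired analysis was possible because the 2 libraries form a single group. The median of the 10 genes was between 9.46 and 10.2 FPKM with either library left out, 10.1 FPKM with the libraries set to a median ratio of 1, and 25.9 when each library was rescaled to TPM, a change of unit. Taken gene by gene, the percentiles of the 10 had a median of 81.4 among all symbols, 72.0 among protein-coding symbols and 49.6 among symbols whose mean reached 1 FPKM. All 10 genes reached limits of 0.5 and 2 FPKM in both libraries, and 7 reached 5 FPKM. Of the 9 neighbouring steps in the order of levels, 4 were past the spread with a pseudocount of 0.1 or 0 and 6 with the spread of genes at 5 FPKM or more. Of the 26 pairs, 22 were past the spread, 20 with a pseudocount of 0.1, and 20 to 23 with either library left out; over these settings and the added copies, Ssbp1 over Polg and Lonp1 over Tfam lost the call with a pseudocount of 0.1 and in replicate 2 alone, Tfb1m over Dimt1 gained it in replicate 1 alone, and no pair changed sign. None of the 10 genes passed the fold limit between the libraries under any of its alternatives. Adding the copies, an alternative chosen after the data were seen, gave plain sums of 4.62 FPKM for Tfb2m and 22.6 FPKM for Ssbp1. Without globins in the total, the mean share of mitochondrial mRNAs was 8.95% against 8.38%. Without counts, the precision of genes near 3 FPKM such as Polg2 and Ppargc1b cannot be given.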

Other observations

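The ETS core CCGGAAG was counted in the promoters of the other lists as well. It was found in 7 of 12 genes of nucleoid and protein turnover and in 12 of 25 genes of mitochondrial transcription and RNA processing. It was found in 3 of 14 genes of replication and repair of mitochondrial DNA and in 2 of 16 nuclear subunits of oxidative phosphorylation, beside 20.3% of all detected genes with a promoter. It was found in 5 of 25 biogenesis regulators, 2 of 12 nucleotide supply genes and 3 of 13 nuclear replication and transcription counterparts. Among the 8 heart muscle markers with a promoter, it was found in 0, as in each of the other marker lists. The core of the NRF1 site was found in 6.38% of detected genes. It was in 3 of 16 nuclear subunits of oxidative phosphorylation, 2 of 12 genes of nucleoid and protein turnover and 2 of 13 nuclear counterparts. It was in 2 of 14 genes of replication and repair, 1 of 12 nucleotide supply genes and 2 of 25 biogenesis regulators. In mitochondrial transcription and RNA processing it was in 0 of 25 genes, and no promoter of the marker lists held it. These are counts of letters in windows of the same length, with no test.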
